A study of Mus musculus with 6 samples.

Results

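The 40 genes described here act in G2 phase and mitosis, the part of the cell cycle in which a cell with replicated DNA condenses its chromosomes, attaches them to the spindle, separates them and divides. They were listed by symbol for their known roles, and each symbol matched 1 row of a count table of 51912 genes. All 40 passed the filter on low counts that left 15240 genes for testing. RNA was sequenced by Smart-Seq2, a full-length cDNA amplification for small inputs, from C57BL/6J testis cells taken on postnatal day 4. Cells carrying THY1 but not c-KIT on their surface were sorted, to enrich spermatogonial stem cells, which maintain the male germ line. The 3 wild type libraries and the 3 Bud31-vKO libraries differ by a Cre-loxP deletion of Bud31, a spliceosome gene. The labels name neither the Cre driver nor the deleted exons, and no label says whether each library is from its own animal, so the spread that p-values measure here may be technical. The table names its columns C1 to C3, read as wild type, and T1 to T3, read as Bud31-vKO, a reading that the labels do not spell out.

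Entry into mitosis is driven by the kinase CDK1 bound to cyclin B. CDC25 phosphatases and the kinase PLK1 activate it, and its targets include the proteins of the spindle and the kinetochore, the structure that ties chromosomes to microtubules. The spindle assembly checkpoint holds back the anaphase-promoting complex, a ubiquitin ligase, until every chromosome is attached, after which cyclin B is destroyed and the cell divides. In the neonatal testis, spermatogonia, Sertoli cells and interstitial cells all divide, and these genes mark any dividing cell.

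Between genotypes, none of the 40 genes passed the test over all genes, and the spread between libraries was wide. Anln, Top2a, Plk1, Kif2c and Cdca8 had all 3 Bud31-vKO levels under the lowest wild type level, and no member was higher in every Bud31-vKO library. These 5 are 12.5% of the members. Over all genes tested 6.39% were lower without overlap and 4.76% higher, and 7.38% were lower among genes with at least the lowest member mean level. The most visible pattern was that of single libraries. Bud31-vKO library 1 held the lowest level of 28 of the 40 genes, against 12.8% of all genes tested. Bud31-vKO library 2 held the highest level of 18, against 19.5% of all genes tested.

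The libraries held 13240704 to 18744466 reads, and 12464 to 22300 genes were detected in each, the fewest in wild type library 3 (13762) and Bud31-vKO library 2 (12464). Levels are given as CPM, read counts relative to the library total, scaled by TMM, a method that sets libraries to a common level for most genes. Bud31 had levels of 138, 96.8 and 158 CPM in the wild type libraries, in the order 1 to 3 used throughout, against 47.2, 67.6 and 80.4 CPM in the Bud31-vKO ones, lower in each of the latter, and 238 bases of its transcripts match Ptcd1, counted at 0.175 to 40.1 CPM. All 10 germ cell markers were detected in each library. They summed to 3595, 3380 and 3125 CPM in the wild type libraries, against 1696, 2188 and 2246 CPM in the Bud31-vKO ones. Singly, Ddx4 and Mael were lower without overlap and the others overlapped, among them Dazl, the highest (907 to 1824 CPM against 906 to 1086 CPM). Lin28a was higher in Bud31-vKO libraries 1 and 3 (25.4 and 26.9 CPM) than in any wild type library. Of the stem cell markers, Nanos2 had reads in wild type library 1 only, at 0.0729 CPM, Id4 was at 0 in wild type library 3, and Eomes was at 0 in wild type library 2 and Bud31-vKO libraries 2 and 3. The 6 stromal cell markers, among them the collagens Col1a1 and Col1a2, summed to between 6497 and 14900 CPM with overlap between genotypes, which is above the germ cell sum in each library. In bulk samples, fewer cells of a type and less RNA per cell cannot be told apart.

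The genes share features that the list did not use. They lie on 16 chromosomes, with the largest number, 8, on chromosome 2. Their longest protein-coding transcripts had a median of 14.5 exons, from 3 in Birc5 to 46 in Cenpe, against 9 over 13177 protein-coding genes tested, while the median transcript length was 3285 bases against 3164. Promoters of genes that peak in G2 and mitosis are known for the CHR element, bound by the DREAM and MYB-MuvB complexes, and for CCAAT boxes, bound by NF-Y. RefSeq promoter windows (GRCm38.p6, 250 bases before to 50 after the gene start) were at hand for 34 of the 40 genes. The CHR letters TTTGAA or TTCGAA, searched on both strands, were in a window of 28 of the 34 genes (82.4%). The share was 21.7% of 27025 genes with a window and 20.2% of 17492 protein-coding ones. CCAAT, also on both strands, was in a window of 27 genes (79.4%), against 41.1% and 42.3%. A window with both was held by 25 of the 34 genes (73.5%), against 8.61% and 8.22%. Bub3, Ect2 and Prc1 have 2 windows each, and a gene was counted if either matched. No pair of these motifs matches the same letters in full, TTCGAA reads the same on both strands and was counted once, and a match is a description of these letters, not of a bound site.

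The promoters below belong to 4 of the 5 genes without overlap between genotypes and to Cdc20, an example with CHR and CCAAT letters close to the start, chosen after those letters were seen. Each ends at the base before the RefSeq gene start and runs 5′ to 3′ on the gene's strand. Capitals mark the CHR letters, which read TTCAAA where TTTGAA is on the other strand, and CCAAT, which reads ATTGG where it is on the other strand. Top2a is at chr11:99024190-99024439 on the minus strand, Plk1 at chr7:122159315-122159434 on the plus strand, Cdca8 at chr4:124936918-124937037, Kif2c at chr4:117178773-117178892 and Cdc20 at chr4:118437344-118437463, the last 3 on the minus strand, all in GRCm38.p6. The RefSeq starts of Cdca8 and Kif2c lie 2394 and 3867 bases inside the GENCODE genes whose positions are given further on, so these stretches are upstream of the RefSeq start only, and the starts of Top2a, Plk1 and Cdc20 differ by at most 9 bases.
Top2a: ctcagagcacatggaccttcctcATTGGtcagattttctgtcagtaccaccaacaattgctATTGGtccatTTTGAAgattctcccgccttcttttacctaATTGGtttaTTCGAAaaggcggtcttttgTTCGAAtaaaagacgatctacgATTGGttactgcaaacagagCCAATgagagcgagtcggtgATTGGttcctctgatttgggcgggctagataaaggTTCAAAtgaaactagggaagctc
Plk1: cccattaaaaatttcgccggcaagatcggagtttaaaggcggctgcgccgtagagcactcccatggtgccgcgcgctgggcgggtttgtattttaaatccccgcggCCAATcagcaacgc
Cdca8: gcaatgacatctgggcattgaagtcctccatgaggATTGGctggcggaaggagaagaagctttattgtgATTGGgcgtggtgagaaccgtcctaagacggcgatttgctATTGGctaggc
Kif2c: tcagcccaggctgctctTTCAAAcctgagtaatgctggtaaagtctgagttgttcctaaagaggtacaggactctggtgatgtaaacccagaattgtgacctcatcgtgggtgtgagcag
Cdc20: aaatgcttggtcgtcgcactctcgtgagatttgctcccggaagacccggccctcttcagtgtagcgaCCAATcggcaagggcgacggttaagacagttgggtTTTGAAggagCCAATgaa
The Top2a window holds 6 CCAAT and 4 CHR matches, and no other member window holds more than 2 CHR matches. In Cdc20 a CHR match begins 18 bases before the start, between CCAAT matches that begin 53 and 8 bases before it. The only CHR match of Plk1 and of Cdca8 lies past the gene start, outside the stretch shown, 30 and 13 bases into the transcript, and Anln, the other gene without overlap, holds its 2 CHR matches there, 21 and 28 bases into the transcript, and no CCAAT. The 5 genes thus hold between 0 and 6 CCAAT matches and differ widely in these letters.

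Set on a common scale per length (CPM per kb of the longest protein-coding transcript), Cdca8 had the highest wild type level at 325 ± 12.3 (SD, n = 3). Cdca8 encodes borealin, a subunit of the chromosomal passenger complex. It was followed by Cenpa, the histone H3 variant of centromeres, at 159 ± 43.4, and Ccnb1, cyclin B1, at 135 ± 86.3 CPM per kb (SD, n = 3 each). Cdc20, which activates the anaphase-promoting complex, came next at 131 ± 96.1, Cdca3, a protein linked to the destruction of WEE1, at 130 ± 9.52, and Aurkb, the kinase of the chromosomal passenger complex, at 129 ± 43.5 CPM per kb (SD, n = 3 each). Cdca8 stood above the others by more than their spread on this length, whereas Cenpa, Ccnb1, Cdc20, Cdca3 and Aurkb, neighbours in that order, did not differ beyond their spread. The order depends on the length used: per kb of all exons joined, Cdc20 was highest at 126 and Cdca8 next at 102, and per kb of the longest transcript of any kind Cdca8 was highest at 157. On these lengths Cenpa was at 39.9 and 61.4 CPM per kb, ranks 13 and 10 of the 40. On the coding transcript, the lowest levels per kb were those of Cdc25b at 4.80, Mad2l1 at 7.73 and Cdk1 at 8.97 in wild type. In Bud31-vKO the order began with Cdca8 at 221 ± 84.7, Aurkb at 147 ± 145 and Cdca3 at 146 ± 110 CPM per kb (SD, n = 3 each), and ended with Plk1 at 3.39.

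**Figure D1:**
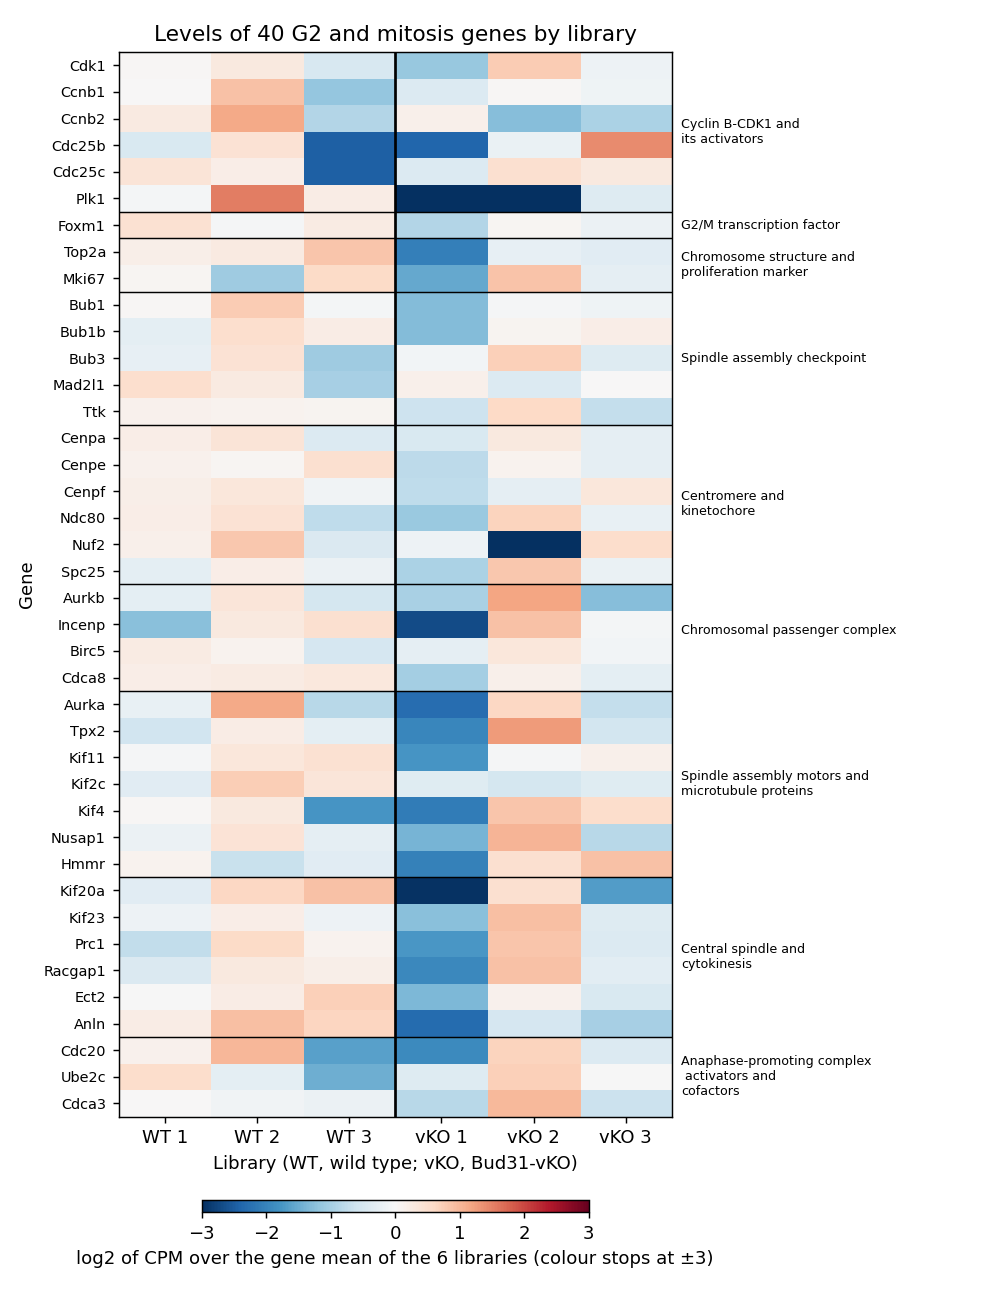
Level of each of the 40 genes in each library, as log2 of its CPM over the mean of the 6 libraries, in blocks by role; blue is below the mean and red above it. Bud31-vKO library 1 is blue for most genes (lowest for 28 of 40), and Bud31-vKO library 2 is red for many (highest for 18). Other genes are below their mean in Bud31-vKO library 2, among them Plk1, Nuf2, Ccnb2, Kif2c and Anln.

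Single libraries carried much of the variation. The summed level of the 40 genes was 6134, 7862 and 6152 CPM in the wild type libraries, against 2928, 8454 and 5163 CPM in the Bud31-vKO ones, or 0.303% to 0.817% of all reads. Both the lowest and the highest sum were thus found in Bud31-vKO, and the genotypes overlapped. Bud31-vKO library 1 was lowest for 70.0% of the members against 12.8% of all genes tested, and Bud31-vKO library 2 highest for 45.0% against 19.5%. Over all genes the lowest library was most often wild type library 3 (33.7%) or Bud31-vKO library 2 (28.4%), which held the lowest level of 17.5% and 7.50% of the members. The shares over all genes include genes without reads in some libraries, and ties for the lowest went to the first library in order. Every member had at least 24 reads in each library. The shares are thus not from genes of like level, and part of the contrast may stem from this. Wild type library 2 was highest for another 12 members. The fold between the highest and the lowest library ran from 1.80 in Cenpa and Birc5 to 38.2 in Plk1, with a median of 4.59.

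The sums of Sertoli cell markers and of T and natural killer cell markers peaked in Bud31-vKO libraries 1 and 2, and those of other cell types elsewhere. Endothelial (183 CPM), erythroid (216 CPM) and Leydig cell markers (20.6 CPM) were highest in Bud31-vKO library 3. Macrophage (191 CPM), peritubular myoid (651.5 CPM) and stromal cell markers (14900 CPM) were highest in wild type libraries 1, 2 and 3, in that order. The 14 Sertoli cell markers summed to 1789 CPM in Bud31-vKO library 1 and to 131 to 464 CPM in the other 5 libraries. Clu gave 854 CPM of the former, and all markers other than Cldn11, Rhox5 and Tsx were highest in that library. The 7 T and natural killer cell markers summed to 201, 551 and 109 CPM in the Bud31-vKO libraries, against 8.68, 85.8 and 84.7 CPM in wild type. Ptprc (328 CPM) and Klrd1 (123 CPM) made up most of the sum in Bud31-vKO library 2, where Cd3e was at 0. Ptprc, Klrd1 and Cd3g were higher there than in Bud31-vKO library 1, and Cd3e, Nkg7, Gzma and Cd69 were lower. The wild type and Bud31-vKO sums of these 7 markers did not overlap, and Cd69 was at 0 in every wild type library. Of the Sertoli cell markers, Amh, Wt1, Cldn11, Fshr and Aard were at 0 in Bud31-vKO library 2, and Sox9, Inhbb, Cldn11, Fshr and Tsx in wild type library 3. The part of these cells in the levels of the members was not tested. Divided by the germ cell marker sum of the same library, a ratio chosen after the data were seen, the summed level of the 40 genes was 1.71, 2.33 and 1.97 in wild type and 1.73, 3.86 and 2.30 in Bud31-vKO. On that ratio Bud31-vKO library 1 lay inside the wild type range. It lay below every wild type library when the sum was divided by the markers of stromal cells (0.338 against 0.413 to 0.969). The same held for the markers of Sertoli cells (1.64 against 13.2 to 59.8) and T and natural killer cells (14.6 against 72.6 to 707). On the last ratio Bud31-vKO libraries 2 and 3 also lay below every wild type library, at 15.35 and 47.2. The Sertoli cell ratio could only be lowest in Bud31-vKO library 1, which had the lowest member sum and the highest Sertoli cell sum.

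**Figure D2:**
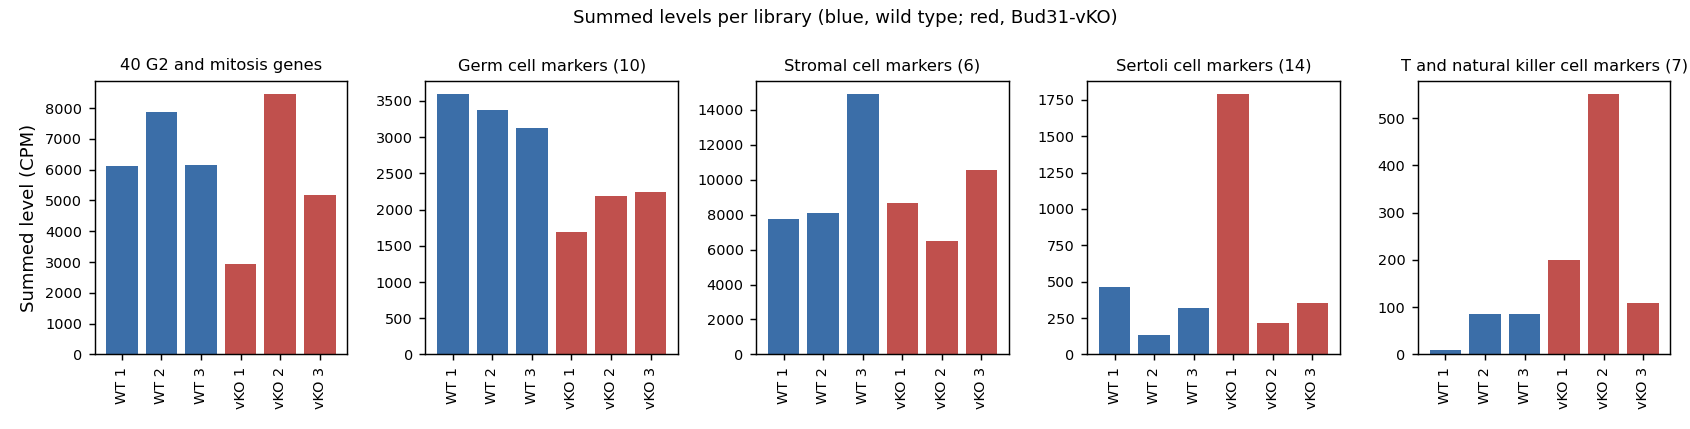
Summed CPM per library of the 40 genes and of the germ, stromal, Sertoli, and T and natural killer cell markers, with the number of markers in parentheses; each panel has its own axis from 0. Bud31-vKO library 1 has the lowest bar for the 40 genes (2928 CPM) and the highest for Sertoli cell markers (1789 CPM), and Bud31-vKO library 2 the highest for the 40 genes (8454 CPM) and for T and natural killer cell markers (551 CPM).

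In edgeR's quasi-likelihood fit, p-values were Benjamini-Hochberg adjusted over all genes, and 0 of the 40 members were called, with a background of 0.0% of genes called. The smallest adjusted p of a member was 0.9997. At an unadjusted p under 0.05 edgeR gave 2 lower members, Anln and Top2a (5.0%, against 1.82% of all genes lower), and 0 higher ones (against 1.08% higher, or 2.91% in either direction). That number was 6 without Bud31-vKO library 2 (2.73% of all genes then lower), 1 when either Bud31-vKO library 1 (1.62%) or wild type library 3 (2.16%) was dropped, and 0 without wild type library 2 (1.23%). DESeq2, which called 0.314% of all genes, and limma-voom also called 0 members after adjustment, each with 3 lower and 0 higher at an unadjusted p under 0.05. Over all genes DESeq2 gave 2.57% lower and 2.38% higher at that p, and limma-voom 2.97% and 1.99%. Groups did not overlap for 5 members (12.5%), all lower in Bud31-vKO, against 6.39% of all genes lower and 4.76% higher. The log2 fold change (Bud31-vKO over wild type) was below 0 for 27 of 40 (67.5%, against 48.9% of all genes), with a median of -0.18 against 0.02 over all genes. The sign of that median turned on single libraries: with Bud31-vKO library 1 left out it was 0.05, and with wild type library 2 left out 0.07, each with 19 of 40 below 0. Without Bud31-vKO library 2 it was -0.71, with 35 below 0. For 16 of the 27 the sign was kept in each of the 15 alternative fits, all of the same libraries. These 16 include the 5 genes without overlap, whose sign can hardly change when libraries are left out. Division by the germ cell marker sum is not among these fits. On that scale 7 of 40 members were below 0, against 3132 of 15199 genes.

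**Figure D3:**
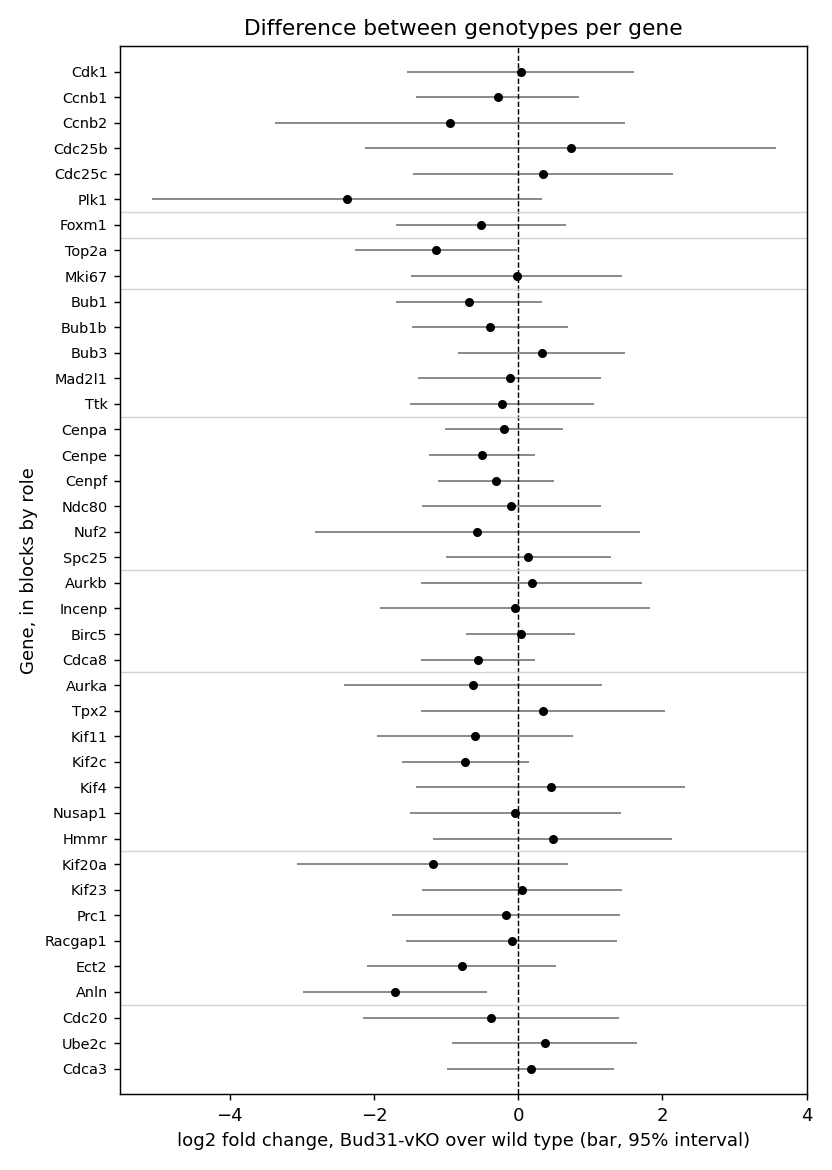
Log2 fold change of each gene, Bud31-vKO over wild type, with its 95% interval from edgeR's quasi-likelihood fit of 3 libraries against 3, in blocks by role. The intervals include 0 for all genes other than Top2a (-2.26 to -0.01) and Anln (-2.98 to -0.43).

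Cyclin B, CDK1 and its activators gave the widest range. Ccnb1, which encodes the main mitotic cyclin, had levels of 307, 564 and 137 CPM in the wild type libraries, against 231, 315 and 280 CPM in the Bud31-vKO ones. Wild type libraries 2 and 3 were the highest and the lowest, so the groups overlapped. Its log2 fold change was -0.29 (SE 0.49) (unadjusted p = 0.574, edgeR), and it was 0.30 without wild type library 2. Reads of Ccnb1 may be split with its pseudogenes, of which Ccnb1-ps matches 1287 bases at 99.2% identity and was counted at 2.56 to 11.7 CPM.

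Plk1, the polo-like kinase of mitotic entry and spindle function, is a plus-strand gene at 122159439 to 122169873 of chromosome 7 in GRCm38. It had levels of 22.1, 67.1 and 27.0 CPM in the wild type libraries, against 1.75, 2.93 and 17.7 CPM in the Bud31-vKO ones. All 3 Bud31-vKO libraries were below the lowest wild type one, libraries 1 and 2 by far, from 24 and 41 reads. Gm44985, which overlaps its exons on the opposite strand, was counted at 0.166 CPM or less. The log2 fold change was -2.38 (SE 1.17), with a 95% interval from -5.08 to 0.33 (unadjusted p = 0.0773, edgeR), and it lay between -4.04 and -1.73 when single libraries were left out. In Bud31-vKO library 2 the low level of Plk1 stood beside high levels of other members. Ccnb2, the second B-type cyclin, had its lowest level there, at 6.78 CPM, and so did Nuf2, a kinetochore subunit, at 3.14 CPM against 37.7 to 89.2 CPM in the other 5 libraries. Ccnb2 and Nuf2 were singled out after their values were seen. The other members of this block had log2 fold changes of -0.94 for Ccnb2, 0.04 for Cdk1, 0.35 for Cdc25c and 0.73 for Cdc25b, the last with an interval from -2.12 to 3.58. Cdc25b was measured at 3.61 CPM in wild type library 3 and 52.7 CPM in Bud31-vKO library 3.

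Foxm1 encodes the forkhead factor that switches on many G2 and mitosis genes. It had levels of 70.4, 50.4 and 61.5 CPM in the wild type libraries, against 28.1, 53.8 and 46.0 CPM in the Bud31-vKO ones. Library 2 of Bud31-vKO lay above the lowest wild type library, and the log2 fold change was -0.51 with an interval from -1.69 to 0.66. Its exons overlap Tex52 on the same strand, which was counted at 0.0731 CPM or less.

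Top2a, the topoisomerase that untangles sister chromatids, and Mki67, the gene of the proliferation antigen Ki-67, differed in pattern. Top2a (chromosome 11, 98992943 to 99024189, minus strand) had levels of 425, 458 and 676 CPM in the wild type libraries, against 91.8, 320 and 299 CPM in the Bud31-vKO ones. No Bud31-vKO library reached the lowest wild type one, a 2.20-fold lower mean by the fit. Its fitted log2 fold change was -1.13 (SE 0.48) (unadjusted p = 0.0481, adjusted p = 0.9997, edgeR), -0.73 to -1.41 when single libraries were left out. Mki67 had levels of 345, 159 and 497 CPM in the wild type libraries, against 114, 597 and 276 CPM in the Bud31-vKO ones. Its lowest and highest libraries were both Bud31-vKO, and its log2 fold change was -0.02 with an interval from -1.49 to 1.44. The difference between these genes was not tested.

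**Figure D4:**
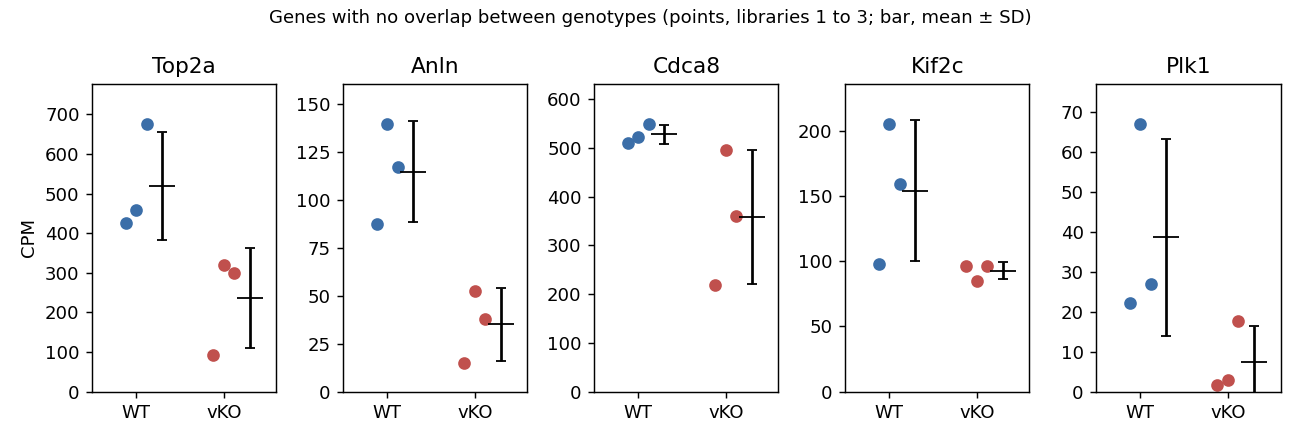
CPM of the 5 genes whose genotypes did not overlap; points are libraries 1 to 3 from left to right, and the bar is the mean with SD (n = 3), cut at 0. For Cdca8 and Kif2c the nearest libraries are close (510 against 495 CPM, and 97.5 against 96.7 CPM), and for Top2a and Anln they are apart.

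In the spindle assembly checkpoint, 4 of 5 members were below 0 in log2 fold change, over a range from -0.69 to 0.32. Bub1, a kinase that recruits checkpoint proteins to the kinetochore, had levels of 164, 274 and 155 CPM in the wild type libraries, against 65.1, 158 and 146 CPM in the Bud31-vKO ones. Only Bud31-vKO library 2 exceeded a wild type library, wild type library 3. The log2 fold change was -0.69 (SE 0.44) (unadjusted p = 0.156, edgeR). Bub1b, the checkpoint protein BUBR1, had -0.39, Ttk, the kinase MPS1, -0.22, Mad2l1, which encodes MAD2, -0.12, and Bub3, the partner of BUB1 and BUBR1, 0.32. Ttk was nearly level in wild type, at 56.5 ± 0.860 CPM (SD, n = 3), and spread from 32.0 to 79.6 CPM in Bud31-vKO.

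Among 6 centromere and kinetochore genes, 5 were below 0, with -0.57 as the lowest value. Cenpf, a large protein of the outer kinetochore, had levels of 447, 503 and 366 CPM in the wild type libraries, against 233, 330 and 499 CPM in the Bud31-vKO ones. Its log2 fold change was -0.31 with an interval from -1.11 to 0.49, and Bud31-vKO library 3 was as high as the upper wild type libraries. The kinesin gene Cenpe, which carries chromosomes to the spindle equator, had -0.50, and Cenpa -0.20. Ndc80, Nuf2 and Spc25, subunits of the complex that grips microtubules, had -0.09, -0.57 and 0.14. In Bud31-vKO library 2 these 3 measured 194, 3.14 and 193 CPM, so that Nuf2 was low where its partners were at their highest.

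The chromosomal passenger complex, which corrects faulty attachments and then guides cytokinesis, was evenly divided, with 2 of 4 genes below 0. Cdca8 (chromosome 4, 124918465 to 124939311, minus strand) had levels of 510, 524 and 550 CPM in the wild type libraries, against 220, 495 and 361 CPM in the Bud31-vKO ones. Every Bud31-vKO library was lower, though library 2 was close to the wild type range. Its fitted log2 fold change was -0.56 (SE 0.34) (unadjusted p = 0.140, edgeR). An opposite-strand gene, 9930104L06Rik, overlaps its exons and was counted at 56.3 CPM in wild type library 3 and at 0.357 to 11.7 CPM elsewhere. The use of strand in the counting is not given in the sources used here. Of the partners, Aurkb had 0.19, Birc5, which encodes survivin, 0.04, and Incenp, the scaffold, -0.04. Survivin's gene was the most even member beside Cenpa, at 176 to 317 CPM over the 6 libraries, and Incenp among the least even, at 24.2 to 285 CPM.

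Spindle assembly genes split into 4 below 0 and 3 above. Tpx2, which activates Aurora A on the spindle, had levels of 106, 183 and 128 CPM in the wild type libraries, against 40.7, 383 and 108 CPM in the Bud31-vKO ones. Bud31-vKO held the lowest and the highest library, and the log2 fold change of 0.35 turned to -0.90 without Bud31-vKO library 2. Kif2c, a kinesin that takes microtubules apart at centromeres (chromosome 4, 117159639 to 117182639, minus strand), had levels of 97.5, 205 and 159 CPM in the wild type libraries, against 96.7, 85.2 and 96.5 CPM in the Bud31-vKO ones. Its Bud31-vKO libraries were the most alike of any member, and the nearest wild type library was only just above them. The log2 fold change was -0.73 (SE 0.38) (unadjusted p = 0.0897, edgeR). Kif11, the motor that pushes spindle poles apart, had -0.60, and Aurka, the Aurora A kinase, -0.62. The values were 0.45 for Kif4, a chromosome-bound kinesin, 0.48 for Hmmr, a spindle protein, and -0.04 for Nusap1, a microtubule bundler.

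Central spindle and cytokinesis genes had the lowest median of the blocks with 3 or more genes, -0.47, with 5 of 6 below 0. Anln encodes anillin, the scaffold of the contractile ring, and is a minus-strand gene at 22332012 to 22389188 of chromosome 9. It had levels of 87.3, 140 and 117 CPM in the wild type libraries, against 15.1, 52.7 and 37.7 CPM in the Bud31-vKO ones. The genotypes did not overlap, with a 3.26-fold lower mean by the fit. Its fitted log2 fold change was -1.71 (SE 0.55), with an interval from -2.98 to -0.43, and lay between -2.11 and -1.32 when single libraries were left out. Its unadjusted p was the smallest of the 40 (0.0153 by edgeR, 0.0077 by DESeq2). The adjusted p was 0.9997 by edgeR and 0.4853 by DESeq2. Divided by the germ cell marker sum, Anln was at 0.0243, 0.0413 and 0.0375 against 0.0089, 0.0241 and 0.0168, the only member without overlap that was lower, by a narrow margin. Over all genes 1.56% were lower without overlap on that scale and 18% higher, and the 4 higher members were Cdc25c, Birc5, Ube2c and Cdca3. The median log2 ratio was 0.51 over the 40 members and 0.78 over all genes. Racgap1, part of the centralspindlin complex, had levels of 158, 261 and 241 CPM in the wild type libraries, against 55.5, 393 and 172 CPM in the Bud31-vKO ones. Its wild type range lay inside the Bud31-vKO range, with a log2 fold change of -0.09. Kif23, its kinesin partner in centralspindlin, had 0.05, Prc1, which bundles the central spindle, -0.16, and Ect2, the exchange factor that turns on RhoA for the ring, -0.78. Kif20a, a kinesin of late mitosis, had -1.18 with an interval from -3.06 to 0.69, and its Bud31-vKO libraries 1 and 3 were low, at 24.8 and 61.0 CPM, but library 2 was at 271 CPM. Its exons overlap Cdc23 on the opposite strand, which was counted at 12.6 to 66.8 CPM.

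Cdc20 and Ube2c, which act with the anaphase-promoting complex, were listed in the same block as Cdca3, which is linked to the destruction of WEE1. Of these 3 genes, 1 was below 0. Cdca3 had levels of 277, 252 and 240 CPM in the wild type libraries, against 154, 539 and 173 CPM in the Bud31-vKO ones. Bud31-vKO libraries 1 and 3 were below every wild type library and library 2 far above, so the log2 fold change of 0.17 became -0.64 without library 2. Cdc20 had -0.38 (-1.14 without Bud31-vKO library 2), with 67.4 CPM in wild type library 3 and 55.1 CPM in Bud31-vKO library 1 as its low values. Ube2c, the ubiquitin-conjugating enzyme of the complex, had 0.37.

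A further 106 genes of the same processes, from 7 lists, were all tested, and 0 were called by edgeR, DESeq2 or limma-voom after adjustment. Of these, 64 had a negative log2 fold change (60.38%, against 48.9% of all genes). Their median was -0.28, and -0.50 to -0.16 with single libraries left out. Groups did not overlap for 17 lower genes (16.04%, against 6.39% of all genes) and 1 higher gene, the kinetochore gene Pmf1 (0.943%, against 4.76%). At an unadjusted p under 0.05 there were 3 lower genes (2.83%, against 1.82%) and 0 higher ones by edgeR, 4 lower by DESeq2 (against 2.57% of all genes) and 6 lower by limma-voom (against 2.97%). The 3 were Nsl1, a subunit of the MIS12 kinetochore complex, Rbbp4, a histone-binding subunit of MuvB, and Stmn1, which destabilises microtubules. Divided by the germ cell marker sum, 21 of the 106 genes were below 0, against 3132 of 15199 over all genes. The median log2 ratio on that scale was 0.46, against 0.78 over all genes.

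By list, 7 of 8 condensin genes were below 0, with a median of -0.62, while 9 of 12 genes of cohesin, securin and separase were above 0, with a median of 0.16. Condensin compacts mitotic chromosomes and cohesin holds sister chromatids together. The difference between these lists was not tested. The condensin genes Ncaph2 and Smc4 measured 172 ± 46.5 and 365 ± 90.5 CPM (SD, n = 3 each) in the wild type libraries, against 97.9 ± 42.0 and 241 ± 92.0 CPM in the Bud31-vKO ones. Sgo2a, which protects centromeric cohesin, had -0.90, and Pttg1, the gene of securin, 0.45.

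Core subunits of the anaphase-promoting complex were listed together with Fzr1, Fbxo5 and Ube2s, which are not core subunits. Of these 17 genes, 14 were below 0, with a median of -0.31. Fzr1 had 0.35 and Fbxo5 -0.61. Anapc5 had levels of 186, 328 and 282 CPM in the wild type libraries, against 185, 186 and 149 CPM in the Bud31-vKO ones, so that the nearest libraries of the genotypes were nearly level. Ube2s, which extends ubiquitin chains on its substrates, had 1.12 with an interval from -0.61 to 2.86. Other kinetochore genes were below 0 for 16 of 26. Nsl1 had levels of 45.6, 81.5 and 71.6 CPM in the wild type libraries, against 22.5, 13.6 and 30.02 CPM in the Bud31-vKO ones, a log2 difference of -1.59 (SE 0.60) (unadjusted p = 0.0295, edgeR). Cenpn, which reads the CENP-A nucleosome, had -1.02. Among other spindle and cytokinesis genes, with 9 of 18 below 0, Stmn1 had levels of 772, 517 and 781 CPM in the wild type libraries, against 431, 463 and 393 CPM in the Bud31-vKO ones, and Kif18a, which limits chromosome swings, had -1.38.

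The other kinases, cyclins and inhibitors were below 0 for 10 of 15. Pbk, a mitotic kinase, had levels of 220, 180 and 202 CPM in the wild type libraries, against 69.7, 160 and 145 CPM in the Bud31-vKO ones. Ccnb3, another B-type cyclin, had reads in all wild type libraries (15.9, 8.18 and 30.6 CPM) and in Bud31-vKO in library 3 only (5.55 CPM), so its log2 fold change of -3.30 rests on that 1 Bud31-vKO library. The DREAM and MYB-MuvB genes, whose complexes bind CHR elements, were below 0 for 5 of 10, with a median of -0.03. Rbbp4 had levels of 156, 194 and 252 CPM in the wild type libraries, against 110, 91.8 and 134 CPM in the Bud31-vKO ones, a log2 difference of -0.84 (SE 0.33) (unadjusted p = 0.0374, edgeR). Tfdp1, the dimer partner of E2F factors, measured 237, 180 and 355 CPM against 163, 102 and 177 CPM and had -0.81.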

How the data were processed

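The deposited table holds unscaled read counts of 6 libraries by Ensembl gene. Reads were written with bcl2fastq and the build was mm10 (the assembly GRCm38), per the submitters' processing notes. What aligned and counted the reads, with which annotation and strand setting, is not given in the sources used here. Symbols, positions, exon numbers and lengths came from GENCODE M21 on GRCm38, and promoter windows from RefSeq. A level per length uses the longest protein-coding transcript, a choice made after the annotation showed single-exon models as the longest for some members.

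The low-count filter was edgeR 4.0.16's filterByExpr, at a minimum count of 10 and a minimum total of 15, followed by TMM scaling. The genotypes were compared by the quasi-likelihood test of edgeR, with no covariate and Benjamini-Hochberg adjustment at 5% over all 15240 genes. The biological coefficient of variation was 119%. Alternatives used DESeq2 1.42.0, limma 3.58.1 (voom), other scalings and filters, a block for the library number, and fewer libraries. Only the main edgeR fit was tested on simulated counts, and the alternatives were not. The fitted fold changes were checked there only at a spread far below that of these libraries. Analyses ran in R 4.3.3 and Python 3.11.15.

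CPM, log2 values and folds were computed here from the counts. The members and lists were chosen with earlier results of these data known, so no set test was run and no p was adjusted over a list. Values in every library are given for the highest member of each role (by CPM), the 6 smallest p, and the members without overlap; of each further list, the 2 genes with the smallest p are named. Other genes were named after their values were seen. Copies were sought by aligning each member's transcript to all transcripts, and 5 members had a pseudogene matching at least 200 bases at 95% identity. The immunoprecipitation profiles that the series mentions were not analysed here.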

Additional observations from a re-analysis of the deposited data

How the results depend on the processing

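No member was called under any of the 15 alternative fits, and none of the named members crossed the threshold. The number of genes called over all genes was 0 by edgeR, 7 with no filter on low counts, and 47 by DESeq2 (17 higher and 30 lower). The median log2 fold change of the members, -0.18, ranged from -0.71 to 0.07 when single libraries were left out, and the number below 0 from 19 to 35 of 40. It was -0.20 to -0.11 under other scalings and -0.71 with wild type library 3 and Bud31-vKO library 2, the 2 with fewest genes detected, left out. With levels divided by the germ cell marker sum, added after the data were seen, it was 0.51, against 0.78 over all genes, and the sum itself had a log2 ratio of -0.72. Of 180 alternative values for named members, 13 had the other sign, all of them for Ccnb1, Racgap1, Cdca3 or Tpx2. By limma-voom Cdca3 had -0.063 and Tpx2 -0.20, and in those 4 libraries -0.68 and -0.95. Without single libraries Ccnb1 ranged from -0.64 to 0.30, Racgap1 from -0.94 to 0.39, Cdca3 from -0.64 to 0.51 and Tpx2 from -0.90 to 0.85. The causes were not tested. With a replicate block the median was -0.37 and 33 members were below 0, while Cdca3 had -0.087 and Tpx2 -0.19, and no call changed. Whether the numbers pair the libraries cannot be told from these values, as deviations from a group mean of 3 libraries are tied to each other. Deviations of same-numbered libraries correlated at 0.191, 0.0407 and -0.0756 across genes, against -0.208 to 0.11 for the other pairs. Wild type libraries 1 and 2 correlated best with the Bud31-vKO library of the same number, and wild type library 3 with Bud31-vKO library 2. With exon unions, or with the longest transcript of any kind, 4 of the 5 highest members per kb were the same, and Cenpa was the one that left them. On exon unions Cdc20 took the first place from Cdca8. Members had 24 to 11611 reads in a library, the fewest in Plk1.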

Other observations

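Wild type library 3 divided the members in a way that the sums do not show. It held the highest wild type level of Top2a (676 CPM), Mki67 (497 CPM), Cenpe (455 CPM) and Kif20a (359 CPM), and the lowest level of the 6 libraries for 7 members, among them Ccnb1 (137 CPM), Cdc25c (8.21 CPM), Cdc25b (3.61 CPM) and Ube2c (44.6 CPM). These genes were chosen after their values were seen.

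Exons of 10 members overlap a gene on the opposite strand. Elovl1, which overlaps Cdc20, was counted at 6.41 to 31.8 CPM in wild type and 25.6 to 77.9 CPM in Bud31-vKO. Rccd1, which overlaps Prc1, was at 0 in wild type library 3 and at 10.9 to 21.2 CPM in the other 5 libraries. Gm3550, which overlaps Cdc25c, was at 31.4 CPM in wild type library 3, where Cdc25c was lowest, and at 0 in Bud31-vKO library 2.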
